A study of Mus musculus with 4 samples.

Results

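Skeletal muscle transcripts divided 4 mouse livers into 2 muscle-high and 2 muscle-low livers, 1 of each in each treatment. A liver was called muscle-high where the summed counts of 6 skeletal muscle genes, Acta1, Myh1, Myh4, Tnnt3, Ckm and Atp2a1, exceeded 1000. That rule took 2 of the 4 livers, saline 1 and baicalein 2, and left saline 2 and baicalein 1. All 4 came from mice of WT genotype with acute-on-chronic liver failure (ACLF), treated with saline in one group (n = 2) and with baicalein, a flavone of Scutellaria baicalensis root, in the other (n = 2). All livers thus share the ACLF model, and no healthy liver was analysed here. The labels give no age, sex, dose or time, and they do not say whether each liver came from its own animal, so p-values reflect how far these samples spread, part of which may be technical. Expression was measured by RNA sequencing of whole tissue.

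Skeletal muscle fibres are long fused cells packed with sarcomeres, in which myosin heavy chains pull on actin filaments when calcium is released from the sarcoplasmic reticulum. An adult fibre is typed by its main myosin heavy chain: Myh7 marks slow fibres, Myh2 and Myh1 mark fast fibres of intermediate metabolism, and Myh4 marks the fastest, most glycolytic fibres. Liver is built of hepatocytes, sinusoidal endothelium, Kupffer cells, stellate cells and bile ducts, and has no striated fibres of its own.

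The 4 livers had library totals of 13976440 to 18731616 counts, and 3 counts correspond to 0.150 to 0.219 CPM (counts scaled to a common library size). Hepatocyte markers, which check the labelled tissue, were high in every library: the 14 genes summed to 98530, 94430, 132700 and 113600 CPM in saline 1, saline 2, baicalein 1 and baicalein 2, the order used for all values below. The 109 genes of 9 skeletal muscle lists took 0.965%, 0.00889%, 0.00861% and 0.417% of the counts. By gene profile, saline 2 and baicalein 1 had the highest Pearson correlation of log2 CPM across genes of any pair of livers (0.955), above both pairs of 1 treatment (0.938 for saline, 0.94 for baicalein). Without the muscle list genes, the pairs of 1 treatment came to 0.964 for saline and 0.962 for baicalein, above saline 2 with baicalein 1 at 0.954. The genes past the threshold between muscle-high and muscle-low livers were also set aside, which fixes the direction. These pairs then came to 0.986, 0.982 and 0.952.

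The 6 genes of the rule summed to 85319, 8, 6 and 32294 counts. The muscle-high liver nearest the threshold thus had 32294 counts and the muscle-low liver nearest to it had 8, with none between. Acta1, the actin of skeletal muscle thin filaments, had 23802, 4, 0 and 13913 counts. Ckm, the muscle creatine kinase, had 5679, 0, 0 and 1548 counts. Atp2a1, the calcium pump of fast-fibre sarcoplasmic reticulum, had 14785, 3, 4 and 5215. Both muscle-high livers lay far above both muscle-low livers for each of the 6 genes, and for Myh4, Myh1 and Ckm the muscle-low livers had no read at all. These counts chose the groups and are given as a description. In whole tissue, more fibres and more RNA per fibre cannot be told apart.

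**Figure D1:**
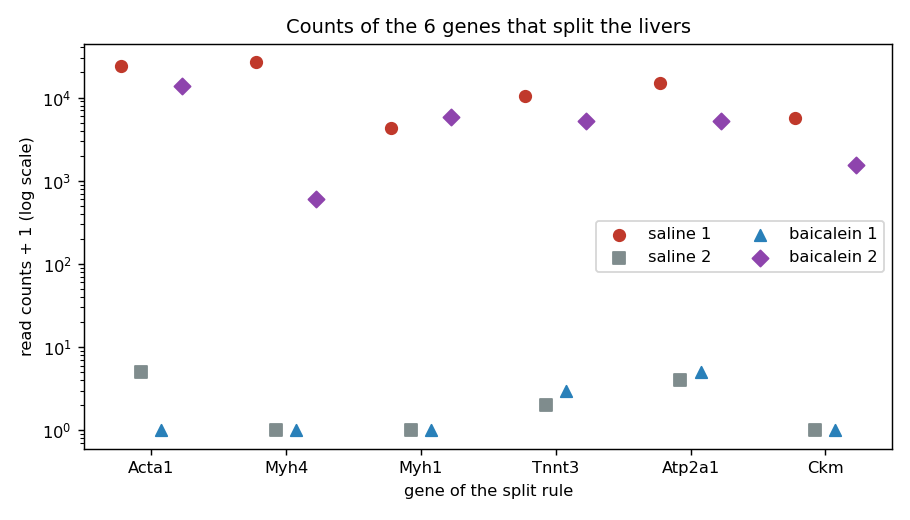
Read counts plus 1 (vertical axis, log scale) of each of the 6 genes that divided the livers, 1 point per liver. Saline 1 and baicalein 2 lie at 608 counts or more for every gene, and saline 2 and baicalein 1 at 4 or fewer.

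The proximal promoters of 5 muscle genes are shown. Myh4 and Myh2 differed in level between the muscle-high livers. Myh1 differed in its share of the myosins but little in level, at 252.5 CPM in saline 1 and 287.5 in baicalein 2. Acta1 and Ckm were high in both, though higher in saline 1. Each is the 250 bases before the start site in RefSeq, build GRCm38.p6, 5′ to 3′ on the gene's strand: Myh4 at chr11:67237562-67237811 (plus strand), Myh1 at chr11:67199852-67200101 (plus), Myh2 at chr11:67170777-67171026 (plus), Acta1 at chr8:123894776-123895025 (minus) and Ckm at chr7:19410844-19411093 (plus). Capitals mark the E-box CANNTG, the letters that myogenic factors such as MyoD recognise.
Myh4: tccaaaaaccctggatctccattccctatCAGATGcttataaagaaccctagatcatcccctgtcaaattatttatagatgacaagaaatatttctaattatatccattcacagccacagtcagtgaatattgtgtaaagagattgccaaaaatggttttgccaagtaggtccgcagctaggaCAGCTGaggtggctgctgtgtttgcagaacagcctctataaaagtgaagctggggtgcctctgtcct
Myh1: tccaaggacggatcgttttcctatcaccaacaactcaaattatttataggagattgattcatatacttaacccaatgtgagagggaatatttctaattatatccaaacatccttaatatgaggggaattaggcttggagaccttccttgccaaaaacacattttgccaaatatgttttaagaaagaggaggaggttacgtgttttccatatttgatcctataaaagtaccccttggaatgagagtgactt
Myh2: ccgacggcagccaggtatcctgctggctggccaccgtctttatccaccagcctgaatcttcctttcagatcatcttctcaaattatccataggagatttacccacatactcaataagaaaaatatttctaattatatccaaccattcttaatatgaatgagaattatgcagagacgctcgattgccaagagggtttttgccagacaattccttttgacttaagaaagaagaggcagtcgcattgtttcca
Acta1: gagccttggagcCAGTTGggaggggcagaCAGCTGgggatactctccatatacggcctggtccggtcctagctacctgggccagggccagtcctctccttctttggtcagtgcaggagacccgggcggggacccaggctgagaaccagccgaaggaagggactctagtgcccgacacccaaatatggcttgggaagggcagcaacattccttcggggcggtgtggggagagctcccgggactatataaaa
Ckm: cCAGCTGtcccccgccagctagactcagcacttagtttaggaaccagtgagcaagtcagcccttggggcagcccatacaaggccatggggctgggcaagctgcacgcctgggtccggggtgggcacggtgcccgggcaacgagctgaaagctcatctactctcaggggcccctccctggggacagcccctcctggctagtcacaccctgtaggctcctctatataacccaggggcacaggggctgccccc
The E-box, which reads the same way on either strand, was in these windows 2 times for Myh4, 2 for Acta1 and 1 for Ckm, and its letters were not in the Myh1 or Myh2 window. One E-box in each of the Myh4, Acta1 and Ckm windows was CAGCTG. In all 32841 promoter windows of the same length, 66.2% held CANNTG and 13% held CAGCTG. The CArG box, the serum response factor motif, was found 1 time each before Myh4 and Acta1 and in 1.47% of all windows. TATAAA, searched on both strands, was found among other places 31 bases before the Myh4 start and 32 bases before the Myh1 start. It lay 7 bases before the Acta1 start and was not in the Myh2 or Ckm window. Of all windows 12.4% held it. The windows may thus not sit alike around each start, and a missing motif is missing from that window only. Of the 109 muscle genes 79 (72.5%) had a promoter in the reference table, too few for a count over the lists. A match describes letters, not a bound site.

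Muscle-high livers were compared with muscle-low livers across 12657 genes in 1 model with treatment as a covariate. Adjusted p under 0.05 by edgeR's quasi-likelihood test (Benjamini-Hochberg) served only as a yardstick here, because the livers were chosen on the same counts, and no p-value is given for this comparison. Past it were 611 genes higher in muscle-high livers, 4.83% of those tested, and 41 lower, 0.324%. Of these, 480 were at least 2-fold higher (3.79%) and 3 at least 2-fold lower (0.0237%). Over all tested genes the log2 fold change had a median of -0.01. Of the 652 genes past the threshold, 649 differed in the same direction within saline and within baicalein. The fit has 1 residual degree of freedom and favours genes whose differences agree between the treatments, so that count is no support. SEs printed with log2 fold changes of this comparison come from the same fit. They lean on spread shared over genes (a median of 82.7 borrowed degrees of freedom) and are likewise a description only. Far fewer genes passed without the treatment term, 25. With both terms 238 passed in DESeq2. Fits with 1 liver left out also drop the treatment term and leave a single liver on 1 side of the division. Far fewer genes passed in those fits too. Their counts are given only with the processing alternatives below, and are not a like comparison.

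Among the 109 muscle list genes, 108 had a count, 91 passed the filter on low counts, and 84 of those were past the threshold, all 84 higher. The filter let most of these genes through because of the muscle-high livers alone, so this count is no support for the difference. No count was seen in either muscle-low liver for 48 of the genes. With those at the bound that 3 counts in each muscle-low liver allow, the median log2 ratio of the 91 genes was 6.43, beside -0.01 over all tested genes. The 7 tested genes not past the threshold included Pygm (6109, 8, 26 and 1237 counts), the muscle glycogen phosphorylase, and Des (2565, 36, 91 and 2033), the muscle intermediate filament protein, both well above the muscle-low livers in each muscle-high liver.

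**Figure D2:**
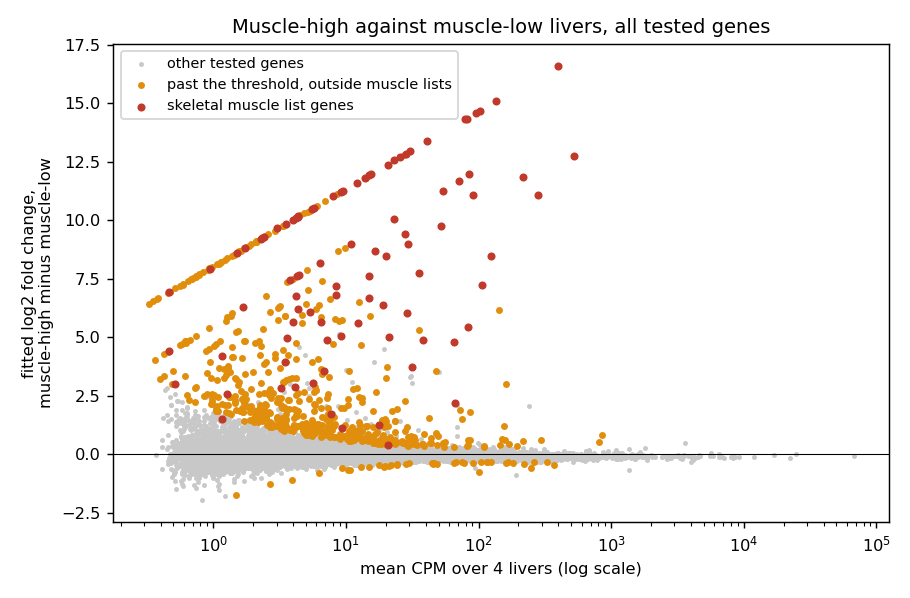
Fitted log2 fold change of muscle-high minus muscle-low livers (vertical axis) against mean CPM over the 4 livers (horizontal axis, log scale) for 12657 tested genes, with skeletal muscle list genes and other genes past the threshold coloured. The cloud centres on a median of -0.01; the straight upper line is genes with no count in either muscle-low liver, whose fitted value depends on the prior count and not on a measured ratio.

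Filament proteins of fast fibres made up 54.1% of the summed CPM of the muscle lists in saline 1 and 46.4% in baicalein 2. The list summed to 5428, 1.24, 1.03 and 1806 CPM. Since it holds 4 of the 6 genes that chose the livers, its sum, and the 10 of 11 tested genes past the threshold, are a description only. Myh4 had 26425, 0, 0 and 608 counts, which is at least 7090-fold more CPM in saline 1 than in saline 2 but at least 147-fold more in baicalein 2 than in baicalein 1. Myh1 had 4295, 0, 0 and 5762 counts, at least 1270-fold more CPM in the muscle-high livers. The thin-filament regulators followed: Tnnt3, the fast troponin T, had 10333, 1, 2 and 5248 counts, and Tnni2, the fast troponin I, 3927, 0, 0 and 1764. Tnnc2, the fast troponin C, did not follow them and had 0, 0, 0 and 2 counts. Its span overlaps that of Ube2c in the table, and no source used here says how reads of overlapping genes were counted.

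Slow-fibre filament genes were present in both muscle-high livers at a lower level. The list summed to 130, 1.17, 0.825 and 144 CPM, and all 7 tested genes were past the threshold, beside 4.83% of all tested genes higher. Of its genes 5 had no count in the muscle-low livers. The filter on low counts let such genes through on the muscle-high livers alone. Counts of calls in this and the following muscle lists are thus a description only. Myh7, the slow myosin heavy chain, had 430, 0, 1 and 370 counts, a ratio of 610 (95% counting interval 109 to 24120). Mybpc1, the slow myosin-binding protein C, had 938, 0, 0 and 1340 counts. Embryonic and neonatal myosin genes were close to 0 everywhere: Myh3 had 1, 0, 0 and 1 counts and Myh8 had 1, 0, 0 and 0.

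Z-disc, titin and scaffold genes kept the same division. This list summed to 1222, 33.3, 28.4 and 801 CPM, with 28 of 29 tested genes past the threshold, beside 4.83% of all tested genes higher. For 10 of its genes the muscle-low livers had no count, so the calls are a description only. Ttn, the giant spring protein of the sarcomere, had 3173, 1, 0 and 1944 counts, a ratio of 3902 (95% counting interval 700 to 154100). Tcap, which caps titin at the Z-disc, had 1040, 0, 0 and 1053. Csrp3 differed least among those past the threshold, at 26.6, 19.5, 16 and 20.8 CPM, so the muscle-low livers were near the muscle-high ones for this gene.

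The machinery that couples excitation to calcium release summed to 1713, 5.69, 5.57 and 545 CPM. Past the threshold were 18 of 18 tested genes, beside 4.83% of all tested genes higher. This list holds the rule gene Atp2a1, at 869 CPM in saline 1 and 260 in baicalein 2, so its sum and calls are a description only. Ryr1, the calcium release channel of skeletal muscle, had 2387, 0, 1 and 1511 counts. Cacna1s, its voltage sensor, had 703, 0, 0 and 413, at least 146-fold more CPM in muscle-high livers. Muscle energy genes summed to 1482, 38.8, 39.5 and 551 CPM with 13 of 17 past the threshold. The energy list holds the rule gene Ckm, at 334 CPM in saline 1 and 77.2 in baicalein 2, and is likewise a description only. Mb, the oxygen-binding myoglobin, had 843, 0, 0 and 2284 counts.

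Regulators of the muscle fate were low but followed the division. Myf6, the myogenic factor of mature fibres, had 93, 0, 0 and 30 counts. Myod1 had 14, 0, 0 and 10, Myog 25, 0, 0 and 5, and Pax7, the satellite cell marker, 5, 0, 0 and 4. Of the synapse genes, Rapsn, which clusters acetylcholine receptors, had 13, 0, 0 and 22 counts, and Chrng, the fetal receptor subunit, had none in any liver. Trim63, a ubiquitin ligase of muscle wasting, had 135, 0, 0 and 159 counts, the same level in both muscle-high livers at 7.94 and 7.93 CPM.

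The muscle-high livers did not carry the same muscle profile. Over the 91 tested muscle genes, 37 were at least 2-fold higher in saline 1 than in baicalein 2, 5 were at least 2-fold higher in baicalein 2, and 49 lay within 2-fold. These are single libraries of different treatments, so the values are a description with no test. The fast filament list was 3.01 times as high in saline 1, with 9 of 11 genes at least 2-fold higher there. The slow filament list stood at 0.904 times, and all 7 of its genes lay within 2-fold.

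The myosins showed the contrast most plainly. In saline 1, Myh4 made up 81.9% of the summed FPKM (reads scaled for gene length and depth) of Myh1, Myh2, Myh4 and Myh7, with Myh1 at 12.6%, Myh2 at 4.55% and Myh7 at 0.931%. In baicalein 2, Myh1 made up 52.7%, Myh2 38.9%, Myh4 5.88% and Myh7 2.5%. Of the counts of these genes, Myh4 held 80.3% in saline 1 (exact 95% interval 79.9% to 80.8%, counting error only) and 5.28% in baicalein 2 (4.88% to 5.7%). The leading myosin was thus that of the fastest fibres in one liver and that of intermediate fast fibres in the other. Myh1, Myh2 and Myh4 are closely related genes, and no source used here says how reads shared between them were counted, so their exact split is uncertain.

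**Figure D3:**
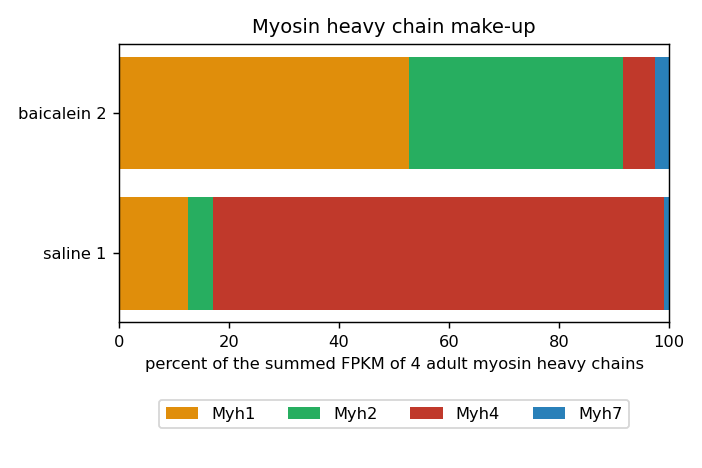
Share of each adult myosin heavy chain gene in the summed FPKM of all 4 (horizontal axis, percent), 1 bar per muscle-high liver. Myh4 fills 81.9% of the saline 1 bar and 5.88% of the baicalein 2 bar.

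Other fibre-type genes parted with the myosins. Actn3, the Z-disc actinin of fast fibres, had 342 CPM in saline 1 and 18.9 in baicalein 2. Pvalb, the calcium buffer of fast fibres, had 306 and 23 CPM, and Mybpc2, the fast myosin-binding protein C, 190 and 17.6. The 5 genes at least 2-fold higher in baicalein 2 were Myh2, Sln, Casq2, Mb and Myoz2. Sln, a peptide regulator of the calcium pump, had 0.941 CPM in saline 1 and 11.2 in baicalein 2, Casq2, the slow and cardiac calsequestrin, 1.94 and 14.7, and Mb 49.6 and 114. Acta1 lay between these sets at 1399 and 694 CPM, and Ckmt2, the sarcomeric mitochondrial creatine kinase, was level at 46.9 and 46.

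**Figure D4:**
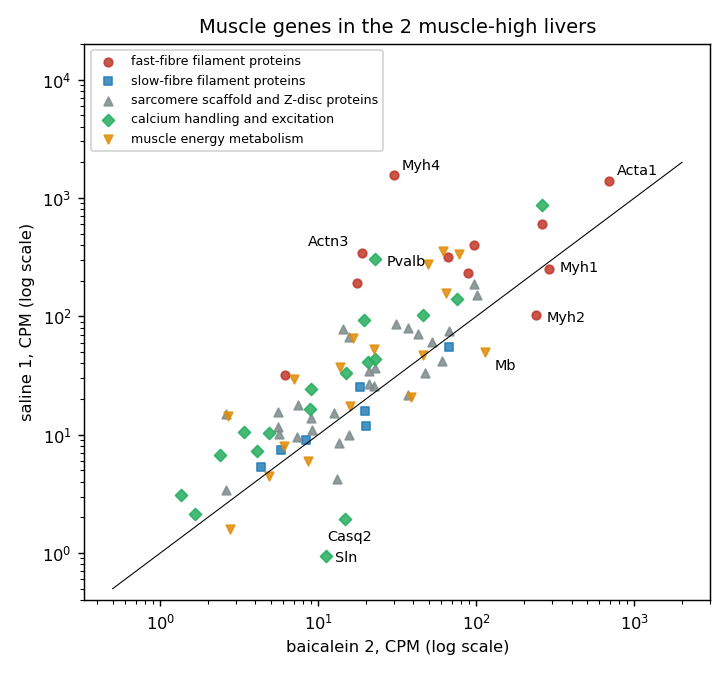
CPM in saline 1 (vertical axis) against baicalein 2 (horizontal axis), both log scales, for the tested genes of 5 skeletal muscle lists; the line marks equal CPM. Myh4, Actn3 and Pvalb lie far above the line, Sln and Casq2 far below it, and the slow-fibre genes along it.

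Outside the muscle lists, 527 genes were past the threshold and higher, 61 of them with no count in either muscle-low liver. Mean CPM in the muscle-low livers was under 1 for 234, 1 to 10 for 196, and 10 or more for 97. Among the 15 named by fitted fold were Eef1a2, the translation elongation factor of muscle and neurons, with 1141, 0, 0 and 848 counts, and Mylk4, a myosin light chain kinase family member, with 876, 0, 0 and 101. Tpm2, the beta-tropomyosin, had 5816, 44, 63 and 4336 counts. Rpl3l, a ribosomal protein of striated muscle, had 361, 3, 1 and 176, and Apobec2, a muscle member of the deaminase family, 671, 2, 5 and 209. With the livers of each side pooled, the 15 were higher by 48.6-fold or more. They included Tmem182, Txlnb, Sbk2, Ky, Sypl2, Hspb7, Alpk3, Sh3bgr, Usp13 and Camk2a. For some, saline 1 carried most of the fold. Sbk2 had 19.6 CPM in saline 1 and 1.95 in baicalein 2, Ky 17.9 and 2.74, and Mylk4 51.5 and 5.04. Of the 15, only Hspb7 (6.94 and 27.8) and Alpk3 (9.82 and 10.6) were higher in baicalein 2. A large fold without overlap was a condition for naming these genes, so their folds are a description only.

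The 41 lower genes differed by less. Their median log2 fold change was -0.43, and the smallest and largest were -0.31 and -1.74. Pwwp2a, a chromatin reader, had 3.94, 7.44, 8.53 and 5.24 CPM (log2 fold change -0.80, SE 0.23), and Bhlhe40, a repressor linked to the clock, 135, 185, 228 and 182 CPM (-0.39, SE 0.10). The muscle-high livers did not overlap the muscle-low ones for either gene, but that was a condition for naming them. Of all tested genes 11% were lower without overlap, and the gaps for these genes were small. For Bhlhe40 the log2 value was -0.19 without saline 1, -0.23 without baicalein 1 and -0.62 without baicalein 2, in fits without the treatment term. In unscaled totals, muscle list counts would lower every other gene by 0.014 on the log2 scale in saline 1 and 0.006 in baicalein 2. That figure leaves out the other genes that were higher, and the CPM here are scaled by TMM. The cause of the lower values was not tested.

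Cell types that could accompany muscle gave 2 patterns. Some markers were higher in both muscle-high livers. Adipoq, the fat-cell hormone, had 37, 0, 0 and 42 counts, and the fat-cell list summed to 20.2, 2.41, 0.963 and 23.6 CPM. Of its 7 genes 4 had no count in the muscle-low livers, so the filter on low counts let some through on the muscle-high livers alone, and no count of calls is read from it. Of the tendon genes, Thbs4, a matrix protein of tendon and muscle, had 136, 0, 0 and 204 counts and Fmod, a collagen-binding proteoglycan, 437, 53, 54 and 338.

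Type I collagen was higher in both muscle-high livers. Col1a1, a chain of type I collagen, had 130, 32.7, 28.7 and 101 CPM (log2 fold change 1.90, SE 0.10), and Col1a2, the other chain, 126, 32.6, 44.9 and 142 CPM (1.80, SE 0.10). Both muscle-high livers lay about as far above the muscle-low livers in each treatment, and 6 of 9 fibroblast genes were past the threshold and higher, beside 4.83% of all tested genes. The other 3 were Lum (5.47, 5.47, 9.9 and 17.2 CPM), Pdgfra (7.52, 7.07, 12 and 14.1) and Dcn (70.1, 64.5, 169 and 172), whose levels within saline were nearly equal. Collagen genes are read as fibrosis markers in liver, and the part of muscle-associated connective tissue in these values was not tested.

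In the second pattern baicalein 2 stood well above the other 3 livers. Of the markers given with the division, Acta1, Myh4 and Ckm were high in both muscle-high livers, but Krt19, the bile duct keratin, had 39, 17, 23 and 1448 counts. Myh11, the smooth muscle myosin, had 112, 66, 49 and 2161 counts, and neither passed the threshold. Saline 1 lay near the muscle-low livers for both genes, so they set baicalein 2 apart from the other 3 livers rather than muscle-high from muscle-low. Acta2, the smooth muscle actin also used as a marker of activated stellate cells, had 13.1, 4.81, 3.99 and 101 CPM, so saline 1 was also above the muscle-low livers, by less. Muc1, an epithelial mucin, had 36, 26, 17 and 1194 counts, and Epcam, a duct surface protein, 71, 35, 32 and 388.

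The smooth muscle list summed to 129, 92.8, 101 and 401 CPM and the bile duct list to 120, 115, 62.4 and 227. Past the threshold and higher were 3 of 6 tested smooth muscle genes (Synpo2, Lmod1 and Smtn) and 1 of 9 bile duct genes (Krt7), beside 4.83% of all tested genes. Tagln, usually abundant in smooth muscle, had 2, 2, 2 and 4 counts, and its span overlaps Pcsk7. Of the 7 heart-restricted genes only Tnnt2, the cardiac troponin T, passed the low-count filter, with 11, 2, 6 and 169 counts. The islet list had no count in any liver, the kidney list 0, 0, 0 and 6 counts, and the lung list 9, 7, 10 and 15.

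**Figure D5:**
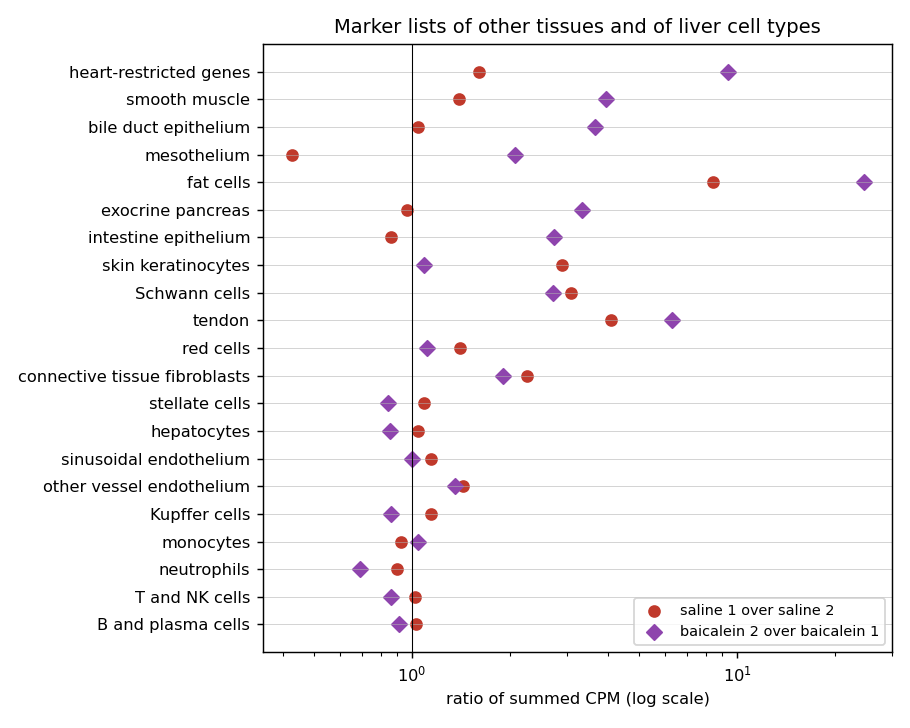
Ratio of summed CPM between the muscle-high and the muscle-low liver of each treatment (horizontal axis, log scale) for 21 marker lists, circles for saline and diamonds for baicalein. Fat-cell, tendon and fibroblast genes lie right of 1 in both treatments, while smooth muscle and bile duct genes lie far right only for baicalein 2, at 3.96 and 3.64, against 1.39 and 1.04 in saline.

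Lists of the main liver cell types gave ratios near 1. None of the 14 hepatocyte, 8 Kupffer cell or 10 sinusoidal endothelial genes was past the threshold in either direction, beside 5.15% of all tested genes. For so few genes that is near the share over all genes and is not read as a result. In other lists Rgs5 (stellate cells and pericytes), Cd34 and Pecam1 (vessel endothelium) were past it and higher, and Lrat (stellate cells) and S100a8 (neutrophils) lower, S100a8 at 0.882, 1.82, 2.75 and 0.499 CPM. The sums of the hepatocyte, Kupffer cell and sinusoidal endothelium lists were 1.04, 1.14 and 1.14 times as high in saline 1 as in saline 2. In baicalein 2 they were 0.856, 0.864 and 1 times as high as in baicalein 1. Among response genes, Pdk4, which blocks pyruvate oxidation in muscle and liver, had 97.5, 35.9, 8.8 and 27.9 CPM (log2 fold change 1.53, SE 0.11), and Fos, an immediate early gene, 49.7, 17.6, 7.77 and 19.4 (1.42, SE 0.13). Both were higher in the muscle-high liver of each treatment, and for Pdk4 saline 2 still lay above baicalein 2. With a liver left out, and the treatment term with it, the log2 value ran from 0.31 (without saline 1) to 2.82 (without saline 2) for Pdk4 and from 0.60 to 2.14 for Fos with the same livers left out.

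Because the division is balanced over treatment, it could be added to the comparison of baicalein with saline, which the rule did not use. With it, 3498 genes passed an adjusted p of 0.05 (edgeR quasi-likelihood, Benjamini-Hochberg), 27.6% of those tested, against 1968 (15.5%) without it. DESeq2 with both terms gave 1279, and leaving out 1 liver, which also drops the division, 1056 to 1328. The 3498 comprised 1809 higher (14.3%) and 1689 lower (13.3%), and the 1968 comprised 968 higher (7.65%) and 1000 lower (7.9%). Of the 1968, 1967 were among the 3498, all with the same sign. The additional 1531 genes came with a common biological coefficient of variation of 0.087 in place of 0.289, on 1 residual degree of freedom in place of 2. The median SE of the baicalein change did not fall, at 0.151 with the division and 0.149 without it. The median degrees of freedom borrowed across genes rose from 6.53 to 82.7, so adjusted p-values with the division lean on spread shared over genes. Y-linked genes summed to 820, 836, 2 and 1 counts, so the apparent sex of the livers followed treatment. Sex, which the labels do not give, and treatment thus cannot be told apart for any gene in this comparison. Each side of the muscle division, in contrast, holds 1 liver of each kind.

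Of the 91 tested skeletal muscle genes, 11 rose and 39 fell with baicalein once the division was in the model, and without it the smallest edgeR adjusted p among the 91 was 0.347. As the muscle-low livers were at or near 0, these calls compare saline 1 with baicalein 2, that is 2 libraries and not the treatments. Myh4 is an example, with an adjusted p of 2.66e-42 in the edgeR fit with the division and 0.611 without it. Its 26425 and 608 counts are those of the muscle-high livers alone.

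Adding the division changed the test results of macrophage and liver-function genes to different degrees. Rises and falls here compare baicalein livers with saline livers, which also differed in Y-linked counts. They cannot be assigned to baicalein rather than sex. Trem2, the lipid-sensing receptor of macrophages named in the study's title, had 2, 4, 68 and 97 counts and rose by 4.55 on the log2 scale (SE 0.51), with an adjusted p of 3.38e-12 with the division and 5.77e-04 without it (edgeR). Its deposited counts and FPKM disagree in 3 of the livers, so its level is uncertain. Arg1, the arginase of hepatocytes and of alternatively activated macrophages, rose by 0.78 (SE 0.13), with edgeR adjusted p of 1.34e-06 and 0.00238, and missed the threshold without saline 1 (0.0746) or saline 2 (0.102). Mrc1, the mannose receptor of macrophages and sinusoidal endothelium, had 37.7, 27.4, 48.1 and 51.3 CPM and rose by 0.62 (SE 0.11, edgeR adjusted p of 3.39e-06) with the division. Without it the log2 change was nearly the same, 0.61 (SE 0.16), and missed the threshold (0.0567), as it did without saline 2 (log2 change 0.39, adjusted p of 0.132), baicalein 1 (0.184) or baicalein 2 (0.272).

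Cd163, the haemoglobin scavenger receptor, rose by 0.63 (SE 0.13) with edgeR adjusted p of 6.58e-05 and 0.0153, and missed it without saline 2 (0.102) or baicalein 1 (0.122). Fits with a liver left out also drop the division. Il1b, an inflammatory cytokine, had a log2 difference of -0.33 (SE 0.35) with edgeR adjusted p of 0.538 and 0.62. Pdk4 fell by 1.89 (SE 0.12, edgeR adjusted p of 8.02e-26) with the division. Without it the log2 change was -1.85 with a wider SE of 1.06, which missed the threshold (0.425), and with a liver left out it ran from -0.97 (without saline 1) to -2.92 (without baicalein 2). Igfbp1, a liver-made binder of insulin-like growth factors, had 295, 505, 109 and 83.6 CPM and fell by 2.02 (SE 0.11, edgeR adjusted p of 2.34e-26) with the division. Without it the change was -2.06 (SE 0.38) with an edgeR adjusted p of 0.0802. Alb, the albumin gene, was the 1 gene that passed without the division and not with it, at 55863, 53157, 87778 and 74261 CPM, with edgeR adjusted p of 0.0237 and 0.0521.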

How the data were processed

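RNA was sequenced from 4 mouse livers, 2 per treatment. Per the labels' protocols, a SMARTer mRNA kit was used for the libraries, and the submitters' processing notes name mm10. No source used here names the aligner or counter. In 1 table the authors deposited whole-number read counts and FPKM per gene. The deposited counts and FPKM of Trem2 disagreed by more than 1%. Columns were tied to livers by their titles and groups to the treatment labels. The deposited counts were used for the tests and CPM, and FPKM only for myosin shares and that check.

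Counts were kept by filterByExpr (12657 of 21959 gene IDs), scaled by TMM (factors 0.963 to 1.07) and fitted with treatment and the muscle division as terms by edgeR's robust quasi-likelihood method (edgeR 4.0.16 under R 4.3.3, two-sided, Benjamini-Hochberg at 0.05). The fit was tested on simulated data. Each combination of both terms holds 1 liver, and an exact permutation test of 2 against 2 livers cannot pass 0.05. Totals of 13976440 to 18731616 counts limit single livers to 0.150 to 0.219 CPM for 3 counts. Lower bounds assume 3 counts in each muscle-low liver; intervals are 95% exact and cover counting error only.

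The members, gene lists and rules were chosen with earlier results of these data known. Named genes are the 6 rule genes, the largest-fold and most abundant members of each list, the 15 other genes each way of largest log2 fold change with mean CPM of at least 5 and no overlap (14 lower genes qualified), and for baicalein 5 fixed genes plus those called with or without the division only. Csrp3, Myod1, Pax7, Tnnc2, Tagln, Trim63 and other list members outside that rule were named after their values were seen. Alternatives were median-of-ratios factors, DESeq2 1.42.0, limma-voom (limma 3.58.1), 2 other filters, muscle genes left out, covariates dropped, a replicate block, each liver left out and, chosen after seeing the data, no robust shrinkage and a replicate block in place of treatment.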

Additional observations from a re-analysis of the deposited data

Results flagged for a closer look

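The summed CPM of the 7 mesothelial marker genes was lower in the muscle-high liver than in the muscle-low liver within saline, at a ratio of 0.426, and higher within baicalein, at 2.08, so the division went opposite ways in the 2 treatments. Upk3b, a surface protein of mesothelium, had 0, 14, 34 and 134 counts, and Msln, mesothelin, 0, 8, 23 and 65, in saline 1, saline 2, baicalein 1 and baicalein 2. Each ratio rests on 1 liver per side, and the difference was not tested.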

How the results depend on the processing

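All 4 livers fell on the same side when the rule genes were scaled by library size or replaced by the other muscle list genes. The 652 genes past the threshold between muscle-high and muscle-low livers became 644 with median-of-ratios factors, 724 with limma-voom, 872 without a filter, 656 at a mean CPM of at least 1, 705 without muscle genes and 761 without robust shrinkage, but 238 with DESeq2 and 25 without the treatment covariate. Leaving out 1 liver, which also drops the covariate, gave 0 to 86: 66 without saline 1, 86 without baicalein 2, and 0 without saline 2 or baicalein 1, where 394 and 432 genes had an unadjusted edgeR p under 0.05. The 3498 for baicalein became 3298 to 3620 under the same first 6 changes, 1279 with DESeq2 and 1968 without the division. Replicate numbers are shared between groups, but no label says that they pair livers; a replicate block in place of the division gave 1132 genes for baicalein. For muscle-high against muscle-low, a replicate block in place of the treatment covariate, chosen after seeing the data, gave 0 genes (411 at an unadjusted edgeR p under 0.05). Treatment, division and block in 1 fit leave no residual degrees of freedom. Leave-one-out gave 1056 to 1328 genes for baicalein, with 1093 without saline 1 and 1125 without baicalein 2.

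Some log2 values changed sign with a liver left out: Nr4a1 (-0.0653 to 1.7437), Lrat (-2.1776 to 1.1831, with 0.2415 without saline 1), and, without saline 1 and without baicalein 1, Hbb-bs (-1.2569 and -0.208, highest 1.8264), Hba-a1 (-1.3313 and -0.2263, highest 2.0205) and Hbb-bt (-1.2996 and -0.267, highest 2.0599) for muscle-high against muscle-low, and Myh4 (-16.5157 to 10.9366), Pvalb (-14.1731 to 10.5364) and Myl1 (-14.2159 to 12.0576) for baicalein; the cause was not tested. Mrc1 missed the threshold with the replicate block (edgeR adjusted p = 0.116) and with saline 2, baicalein 1 or baicalein 2 left out (0.132 to 0.272), and Cd163 with DESeq2 (adjusted p = 0.101), while Trem2 passed under each alternative. Counts of 0 in the muscle-low livers limit folds of muscle genes to lower bounds.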

Other observations

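Ctrb1, a pancreatic protease precursor, had 749 counts in baicalein 2 and 0 in the other 3 livers. Of the other 12 exocrine pancreas genes only Cela1 (358, 315, 227 and 339 counts) and Cela2a (24, 5, 13 and 9) had any count, both at levels that did not set baicalein 2 apart. Of the gut epithelium genes, Lgals4 had 102, 131, 54 and 591 counts and Vil1, a microvillus protein, 8, 12, 4 and 143, both highest in baicalein 2, whereas Fabp2 had 513, 439, 225 and 332. Fosb, an immediate early gene, stood apart in saline 1 instead, with 338, 23, 14 and 35 counts. These genes were picked after their values were seen, and no test was made.

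Endothelial genes of vessels other than sinusoids gave both patterns. Cd34 had 8.76, 2.26, 2.2 and 15.8 CPM and was higher in both muscle-high livers (log2 fold change 2.42, SE 0.24), while Sox17, an arterial factor, had 1.65, 2.41, 2.41 and 9.53 CPM and was highest in baicalein 2. Red cell genes followed treatment more than the division: Hbb-bs, a beta globin, had 388, 263, 64 and 69 CPM.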
